A study of Ovis aries with 15 samples.

Results

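The genes described here are 10 enzymes and subunits that write, maintain or remove the main repressive marks of chromatin: *DNMT1*, *UHRF1*, *DNMT3A*, *DNMT3B*, *TET1*, *TET2* and *TET3* of DNA methylation, and *EZH1*, *EZH2* and *SUZ12* of Polycomb repressive complex 2 (PRC2). They were chosen by symbol, and each matched a single feature of the 24691 in the deposited table. All 10 were among the 13345 genes that held enough reads to be compared between the states. RNA from needle biopsies of mammary parenchyma of Romney ewes, 2-year-old and primiparous, was sequenced as 9 libraries of late pregnancy (day 135 of gestation) and 6 libraries of lactation (day 15 post partum). Each library was made from pooled RNA, of 3 ewes in late pregnancy by the labels and the study's methods, and in lactation of 2 ewes by the labels and 3 by the methods. The ewes were grouped by the feed of their own dams in early gestation, and each group gave 3 pools in late pregnancy and 2 in lactation: HM dams were fed ad libitum, MM dams at maintenance and LM dams below maintenance. In all 3 groups the dams were then fed at maintenance, and the ewes themselves were managed alike.

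DNA methylation is set on new sites by the de novo methyltransferases DNMT3A and DNMT3B and copied after replication by DNMT1, which UHRF1 guides to sites methylated on the old strand only. The TET dioxygenases oxidise methylcytosine, a step towards its removal, and need 2-oxoglutarate and iron to do so. PRC2 methylates lysine 27 of histone H3 through its catalytic subunit EZH1 or EZH2, built on the scaffold subunit SUZ12, and is known for keeping developmental genes silent. In the mammary gland of the mouse EZH2 is known for its role in the growth of alveolar progenitors. Messenger RNA levels are what was measured here, not the marks themselves or the activity of the enzymes.

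Reads on exons were 6471237 to 16898986 per library in late pregnancy and 9014506 to 24001031 in lactation, with reads on the whole gene used for features without an annotated transcript. Levels are given as counts per 1e6 (CPM) of a library size scaled by the trimmed mean of M values (TMM), and changes as the log2 of lactation over late pregnancy. Calls were made where the adjusted p was under 0.05, from edgeR's quasi-likelihood F-test with Benjamini-Hochberg adjustment over all genes tested. Since libraries are pools, p-values measure the spread between pools. By the study's methods ewes biopsied in late pregnancy were biopsied again in lactation, so pools of the states can share animals. Which ewes went into which pool is not given in the sources used here, and the tests treat the pools as independent. In bulk tissue, fewer cells of a type and less RNA per cell cannot be told apart.

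In late pregnancy the Polycomb enzyme *EZH1* stood highest per length, at 19.1 ± 2.14 CPM per kilobase of exon (SD, n = 9), with no pool in the range of the next. That was *EZH2* at 8.87 ± 0.391 CPM per kilobase, and its range overlapped that of *DNMT1* (8.65 ± 0.886). *DNMT3A* (6.54 ± 0.720), *UHRF1* (6.29 ± 1.44), *TET2* (4.21 ± 0.657) and *SUZ12* (3.88 ± 0.435) followed, each with a range that overlapped the next of these 4. Well below them, at under 1 CPM per kilobase on average, lay *TET3* (0.837 ± 0.188), *TET1* (0.682 ± 0.111) and *DNMT3B* (0.535 ± 0.125), whose ranges overlapped in that order. In lactation *EZH1* (24.4 ± 1.64 CPM per kilobase, n = 6) and *EZH2* (14.8 ± 1.32) were again on top, and now neither their ranges nor those of *EZH2* and *DNMT1* (5.52 ± 0.330) overlapped. *UHRF1* dropped from the fifth to the seventh place, at 0.948 ± 0.259 CPM per kilobase, where its range overlapped that of *TET3* (0.497 ± 0.196). Between *DNMT1* and *UHRF1* lay *TET2* (3.62 ± 0.461), *DNMT3A* (3.54 ± 0.417) and *SUZ12* (3.42 ± 0.447), each overlapping the next. *TET1* (0.433 ± 0.182) and *DNMT3B* (0.227 ± 0.137) closed the order.

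Between the states, 6 of the 10 genes fell in lactation, 2 rose and 2 were not called. *DNMT1*, *UHRF1*, *DNMT3A*, *DNMT3B*, *TET1* and *TET3* fell and *EZH1* and *EZH2* rose under TMM scaling, and only with scaling by library size alone, which moves the median change of all tested genes from -0.03 to -1.94, did *EZH1* and *EZH2* turn to -1.54 and -1.17. Relative to that shifted median they still stood at 0.39 and 0.77. Of all 13345 genes tested, 68.4% were called, 35.2% lower and 33.1% higher, so a call alone sets no gene here apart from the rest of the transcriptome. The median log2 change was -0.68 over the 10 genes and -0.03 over all genes tested. A call with a change of more than 2-fold, met by 22.1% of all genes, was met by *UHRF1* and *DNMT3B*. For 4 genes (*DNMT1*, *UHRF1* and *DNMT3A* lower, *EZH2* higher) late pregnancy and lactation pools were fully separate, which held for 40.2% of all genes tested, 20.0% lower and 20.2% higher.

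**Figure D1:**
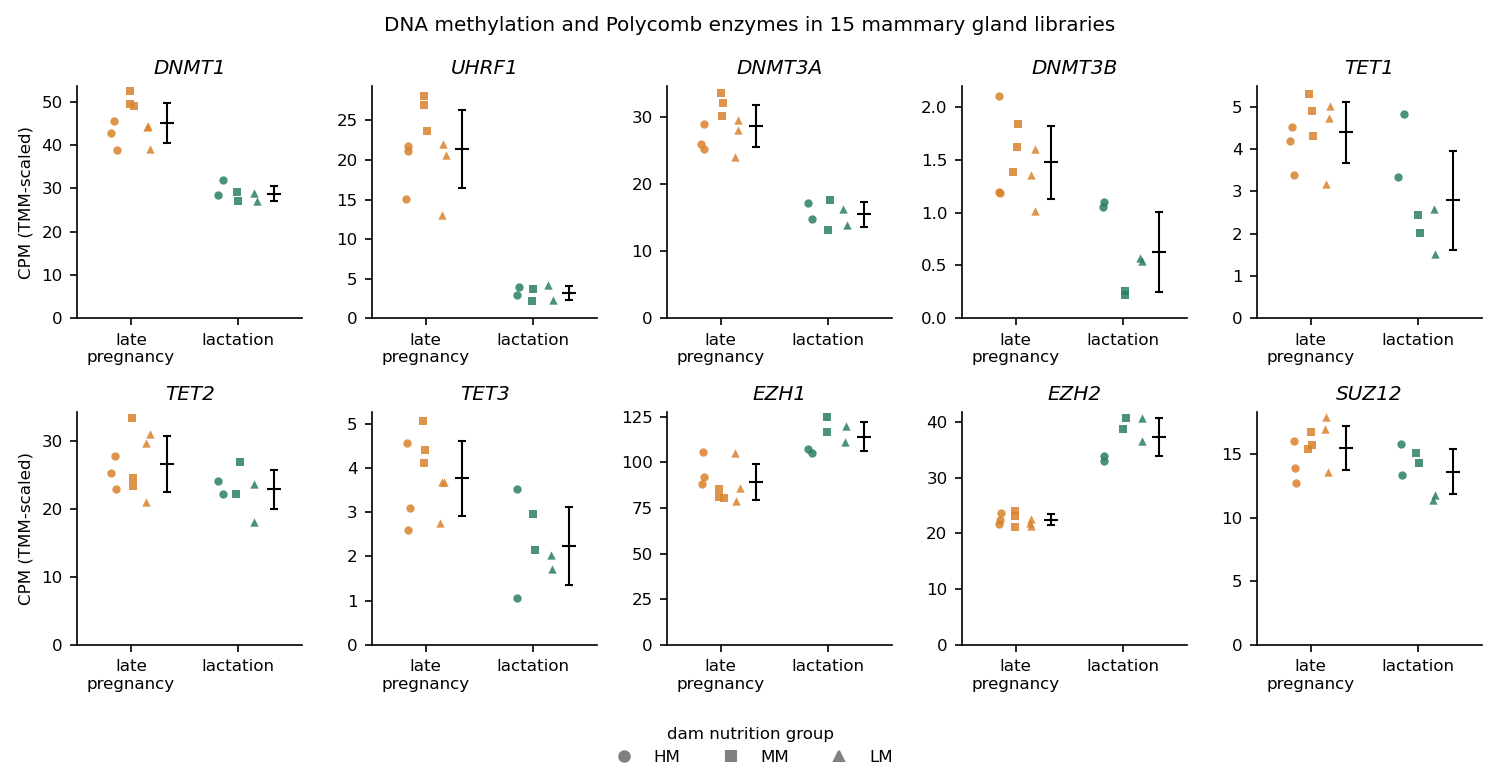
Level of each of the 10 genes (vertical axis, TMM-scaled CPM, from 0) in the 9 late pregnancy and 6 lactation libraries (horizontal axis); symbols give the dam nutrition group and bars the mean ± SD of a state. *UHRF1* lies between 13.0 and 28.0 CPM in late pregnancy and between 2.14 and 4.20 in lactation, while *EZH2* lies between 21.2 and 24.0 and then between 33.1 and 40.7.

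*DNMT1*, the maintenance methyltransferase, lies on chromosome 5 from 12370226 to 12414165 with 40 annotated exons. Positions of the 10 genes are those of the deposited table, for which the submitters' processing notes name Oar_v3.1 while the study's methods name another version of the sheep genome. In late pregnancy its level was 38.7 CPM at the lowest, 44.5 at the median and 52.3 at the highest, and in lactation 27.1, 28.8 and 31.8 CPM. Every lactation pool was thus below every late pregnancy pool. The fall was -0.65 ± 0.0715 on the log2 scale (SE), or 1.57-fold, with an adjusted p of 1.04e-07 by edgeR. Among late pregnancy pools the 3 of the MM group were the highest.

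*UHRF1*, the partner that brings DNMT1 to hemimethylated DNA, lies on the same chromosome from 16808723 to 16842579 with 17 exons, and changed most. Its level ran from 13.0 CPM over a median of 21.8 to 28.0 in late pregnancy, and from 2.14 over 3.37 to 4.20 in lactation, on 165 to 652 and 12 to 43 reads per library. No pool of either state came near the other. The log2 change was -2.73 ± 0.203, a 6.61-fold fall (adjusted p = 3.34e-10 by edgeR), and only 1.48% of all genes tested had a lower log2 change. With limma on quantile-normalized RPKM the fall was -2.41 with 0.1 added before the log and -1.79 with 1 added, and was called in either case. Late pregnancy pools were themselves uneven, with an SD of 4.89 on a mean of 21.4 CPM, and pool 1 of the LM group and pool 2 of the HM group (15.1 CPM) were lowest.

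Of the de novo enzymes, *DNMT3A* (chromosome 3, 32529420 to 32617395, 27 exons) lay at 24.0, 28.9 and 33.5 CPM in late pregnancy (lowest, median, highest) and at 13.1, 15.5 and 17.6 CPM in lactation. No pools of the states overlapped. The log2 change was -0.89 ± 0.0887, a 1.85-fold fall (adjusted p = 2.87e-08 by edgeR). *DNMT3B* (chromosome 13, 61459737 to 61480895, 26 exons) was scarce, with 16 to 42 reads per library in late pregnancy and 2 to 6 in lactation. Its level was 1.01, 1.38 and 2.10 CPM and then 0.225, 0.557 and 1.10 CPM. The lactation pools of the HM group fell inside the range of late pregnancy and the other 4 below it. The log2 change was -1.39 ± 0.311, a 2.63-fold fall (adjusted p = 0.000537 by edgeR). On quantile-normalized RPKM it was called by limma at a smaller size, -0.89 with 0.1 added before the log and -0.28 with 1 added. With so few reads in lactation the size of this fall is loosely set, with a 95% interval from -2.04 to -0.75 on the log2 scale.

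Set against each other per length, the 3 methyltransferases kept a like order in both states. *DNMT1* made up 55.0 ± 1.28% of their summed level per kilobase in late pregnancy and 59.5 ± 3.73% in lactation. *DNMT3A* made up 41.6 ± 0.811% and 38.1 ± 3.74%, and *DNMT3B* 3.41 ± 0.825% and 2.40 ± 1.35%. The ranges of the states overlapped for each of the 3 shares.

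Among the TET dioxygenases *TET2* was by far the most abundant, with 73.5 ± 3.01% of their summed level per kilobase in late pregnancy and 79.8 ± 5.08% in lactation. *TET2* (chromosome 6, 20055989 to 20189172, 12 exons) ran from 21.0 CPM over 25.2 to 33.4 in late pregnancy and from 18.1 over 22.9 to 26.9 in lactation. Of the 6 lactation pools 5 lay within the late pregnancy range. Its log2 change of -0.20 ± 0.105 was not called (adjusted p = 0.0914 by edgeR, 95% interval -0.42 to 0.02). It was called with a fall of -0.29 where at least 10 reads were required in every library, -0.25 without a filter, -0.35 with upper quartile scaling and -0.40 on whole-gene reads. Upper quartile scaling moved the median of all tested genes to -0.18, and relative to that median *TET2* stood at -0.17.

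*TET1* (chromosome 25, 24736161 to 24856726, 11 exons) lay at 3.18, 4.52 and 5.30 CPM in late pregnancy and at 1.52, 2.51 and 4.84 CPM in lactation, on 8 to 28 reads in the latter. The HM pools of lactation, at 4.84 and 3.34 CPM, lay inside the late pregnancy range and the other 4 below it. The log2 change was -0.71 ± 0.190, a 1.64-fold fall (adjusted p = 0.00253 by edgeR). On quantile-normalized RPKM the change was -0.15 with 1 added before the log (adjusted p = 0.0802 by limma) and -0.38 with 0.1 added (adjusted p = 0.0542 by limma), and neither was called. A second annotated feature, LOC101106136, overlaps *TET1* and was listed at 0 CPM in lactation and 0.00550 CPM on average in late pregnancy. *TET1* is also the gene of the 10 for which the study designed RT-qPCR primers, which are shown because they are its designed sequences for these transcripts and have no part in capitals.
TET1 forward: tttctctggggtcactgctt
TET1 reverse: tgagcggttatcttctcgtg
Each primer is 20 bases long with a GC content of 50%.

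*TET3* (chromosome 3, 95791029 to 95843125, 11 exons) lay at 2.59, 3.69 and 5.06 CPM in late pregnancy and at 1.05, 2.09 and 3.52 CPM in lactation. Of the lactation pools 4 were below the late pregnancy range, with pool 2 of the HM group lowest on 6 reads and pool 1 of the same group highest. The log2 change was -0.73 ± 0.214, a 1.66-fold fall (adjusted p = 0.00510 by edgeR). With limma on quantile-normalized RPKM the fall was called at -0.46 with 0.1 added before the log and -0.21 with 1 added. Only 3 of the 10 genes, *DNMT3B*, *TET1* and *TET3*, had fewer than 10 reads in some library.

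The PRC2 genes moved differently. *EZH2* (chromosome 4, 111375473 to 111409038, 21 exons), the catalytic subunit known from dividing cells, lay at 21.2, 22.3 and 24.0 CPM in late pregnancy and at 33.1, 37.7 and 40.7 CPM in lactation. Every lactation pool was above every late pregnancy pool, and late pregnancy pools were closely alike, with an SD of 0.988 CPM. The rise was 0.74 ± 0.0566 on the log2 scale, or 1.67-fold (adjusted p = 4.93e-10 by edgeR). *EZH1* (chromosome 11, 42244915 to 42267442, 22 exons), its close relative known from cells that no longer divide, lay at 78.9, 85.8 and 105 CPM and then at 105, 114 and 125 CPM. Here 5 of 6 lactation pools were above all late pregnancy pools, and the sixth, HM pool 1, lay just within their range. The rise was 0.36 ± 0.0701, or 1.28-fold (adjusted p = 0.000143 by edgeR). It was called but smaller with upper quartile scaling (0.21) and with limma on quantile-normalized RPKM (0.18 with 0.1 added before the log and 0.17 with 1 added). Upper quartile scaling moved the median of all tested genes to -0.18, and relative to that median *EZH1* stood at 0.39.

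*SUZ12* (chromosome 11, 17785271 to 17846369, 22 exons), without which the complex does not hold together, ran from 12.7 CPM over 15.7 to 18.0 in late pregnancy and from 11.4 over 13.8 to 15.8 in lactation. The LM pools of lactation fell below the range of late pregnancy and the other 4 inside it. The log2 change of -0.18 ± 0.0930 was not called (adjusted p = 0.0937 by edgeR, 95% interval -0.37 to 0.02), and reached a call at -0.26 where at least 10 reads were required in every library, at -0.23 without a filter and at -0.33 with upper quartile scaling. Under upper quartile scaling *SUZ12* stood at -0.15 relative to the median of all tested genes. That median was not computed for the filter settings, where *EZH2* also moved down, to 0.66 with 10 reads required and 0.69 without a filter. Of the summed *EZH1* and *EZH2* level per kilobase, *EZH2* took 31.9 ± 2.84% in late pregnancy and 37.7 ± 1.54% in lactation, and no lactation pool (36.2 to 40.4%) fell in the late pregnancy range (27.6 to 35.5%).

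Ratios of genes within a library do not depend on how libraries are scaled. A two-sided exact permutation test of the state labels was run for 10 such ratios of reads per kilobase, where 0.0004 is the smallest p it can give, and 8 ratios passed an adjusted p of 0.05 over the 10. The share of other gene pairs that would pass was not examined. Since 68.4% of single genes were called between the states, passing alone does not set these pairs apart. *EZH2* over *EZH1* ran from 0.381 to 0.550 in late pregnancy and from 0.567 to 0.678 in lactation, 1.29-fold higher (p = 0.0004 by the exact permutation test, adjusted 0.000799). *EZH2* over *SUZ12* ran from 1.98 to 2.77 and then from 3.38 to 5.63, 1.88-fold higher with the same p. *UHRF1* over *DNMT1* ran from 0.512 to 0.844 and then from 0.113 to 0.238, 4.28-fold lower, again with the same p. None of these 3 ratios overlapped between the states. The genes of maintenance methylation thus did not fall alike: *UHRF1* lost more than the methyltransferase it guides.

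The ratio of *DNMT3A* to *DNMT1* was 0.703 to 0.797 in late pregnancy and 0.536 to 0.772 in lactation, 1.18-fold lower on average (p = 0.0140 by the exact permutation test, adjusted 0.0200), with overlapping ranges. *TET2* over *TET3* was 3.45 to 6.31 and then 4.51 to 16.3, 1.53-fold higher (p = 0.0164 by the exact permutation test, adjusted 0.0205). The highest of these values came from HM pool 2 of lactation with its 6 *TET3* reads, and without that pool the adjusted p was 0.0512 by the same exact test, and on quantile-normalized RPKM it was 0.196. The ratios of *DNMT3B* to *DNMT3A* (p = 0.135 by the exact permutation test, adjusted 0.150) and of *TET1* to *TET3* (p = 0.747, adjusted 0.747) did not pass.

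Against *PCNA*, the sliding clamp of replicating DNA, the members split in direction. *PCNA* itself fell by 0.98 on the log2 scale, less than the median of -2.46 over the 24 proliferation genes tested. Ratios to it thus do not stand for that list. *UHRF1* over *PCNA* fell 3.36-fold, from 0.226 to 0.333 in late pregnancy to 0.0533 to 0.129 in lactation (p = 0.0004 by the exact permutation test, adjusted 0.000799). *DNMT1* over *PCNA* rose 1.27-fold, from 0.326 to 0.460 to 0.436 to 0.607 (p = 0.00200 by the exact permutation test, adjusted 0.00333), with overlapping ranges. *EZH2* over *PCNA* rose 3.30-fold, from 0.342 to 0.509 to 1.21 to 1.59 (p = 0.0004 by the exact permutation test, adjusted 0.000799), so that *EZH2* was below *PCNA* per kilobase in each late pregnancy library and above it in each lactation library.

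**Figure D2:**
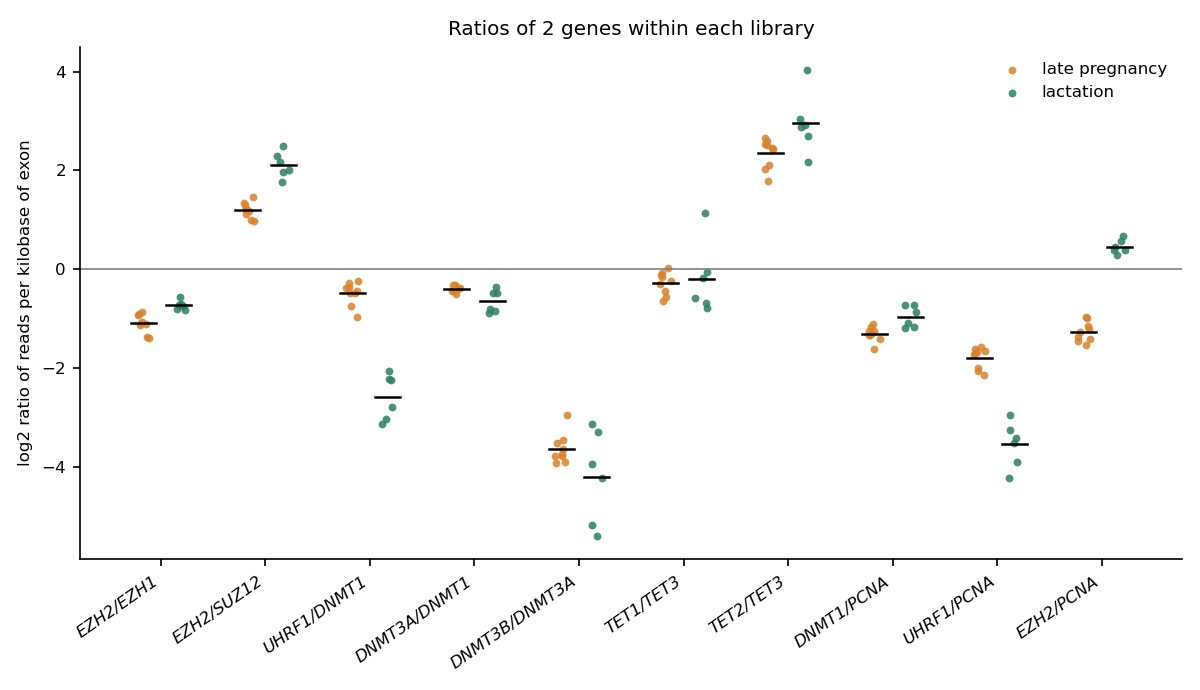
The log2 ratio of reads per kilobase of exon (vertical axis) for 10 pairs of genes (horizontal axis) in each of the 9 late pregnancy and 6 lactation libraries; points are libraries and bars are means. The states are fully separate for *EZH2*/*EZH1*, *EZH2*/*SUZ12*, *UHRF1*/*DNMT1*, *UHRF1*/*PCNA* and *EZH2*/*PCNA*, with a mean log2 difference of -2.10 for *UHRF1*/*DNMT1* and 1.72 for *EZH2*/*PCNA*.

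Reads on introns, taken as whole-gene reads minus exon reads, gave a second readout of the same libraries, which includes RNA not yet spliced, and were scaled by TMM factors of their own. Of 10344 genes tested on them 58.0% were called, 29.0% lower and 29.0% higher, and of the 10 genes 6 were called lower, 1 higher and 3 not at all. *UHRF1* (-2.35 ± 0.265), *DNMT3B* (-1.81 ± 0.319), *TET3* (-1.49 ± 0.290), *TET1* (-1.07 ± 0.204), *DNMT3A* (-0.63 ± 0.105) and *TET2* (-0.58 ± 0.0972) fell on the log2 scale. In lactation, intron reads per library were at most 14 for *UHRF1*, 5 for *DNMT3B*, 9 for *TET3* and 12 for *TET1*. The size of the falls of these genes on introns is thus loosely set. *EZH2* rose by 1.11 ± 0.107, a 2.16-fold change, with intron reads at 62.1 to 86.5 CPM in late pregnancy and 113 to 182 CPM in lactation. *EZH1* (0.22 ± 0.128, adjusted p = 0.147 by edgeR) and *SUZ12* (-0.25 ± 0.176, adjusted p = 0.227 by edgeR) were not called.

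*DNMT1* was not called on this readout. Its intron reads were 28.4 to 49.1 CPM in late pregnancy and 34.4 to 44.3 CPM in lactation, with a log2 change of -0.02 ± 0.124 (adjusted p = 0.885 by edgeR, 95% interval -0.28 to 0.23). Its exon interval, -0.80 to -0.50, lies wholly below that interval. Reads on introns made up 7.77 to 10.6% of the reads on *DNMT1* in late pregnancy and 12.1 to 16.1% in lactation, without overlap. Over the summed reads of all genes with an annotated transcript the share was 14.4 to 16.1% and then 5.85 to 13.2%. Its means over libraries were 15.5% and then 7.49%. That sum weighs each gene by its reads, so it does not show how the share of a typical gene moved. How many single genes gained in share without overlap was not counted. With intron reads scaled by the TMM factors of the exon reads, the log2 change of *DNMT1* introns was 0.06, beside a median of 0.07 over all genes tested on introns. The median change on exons, over all genes tested there, was -0.03. The mean intron share was also higher in lactation for *UHRF1* (17.1% and then 22.3%) and *DNMT3A* (31.5% and then 36.9%), with overlapping ranges. For *EZH2* the share was 23.9 to 32.9% and then 30.0 to 38.6%, and for *TET2*, whose gene reads fell mostly on introns, 61.1 to 65.6% and then 54.8 to 64.8%. No test of the difference between exon and intron changes was run for these genes.

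Reads across exon-exon junctions, which come from spliced RNA and were examined after the other values had been seen, gave the same calls as reads on exons. Such reads lie on exons too, so these readouts are not independent. Among all genes, 6913 were called on junction reads, and their share of the genes tested was not computed. *UHRF1* (-2.94), *DNMT3B* (-1.54), *TET1* (-0.89), *DNMT3A* (-0.86), *DNMT1* (-0.80) and *TET3* (-0.77) fell, and *EZH2* (0.60) and *EZH1* (0.50) rose. *SUZ12* (-0.19) and *TET2* (-0.16) were not called.

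**Figure D3:**
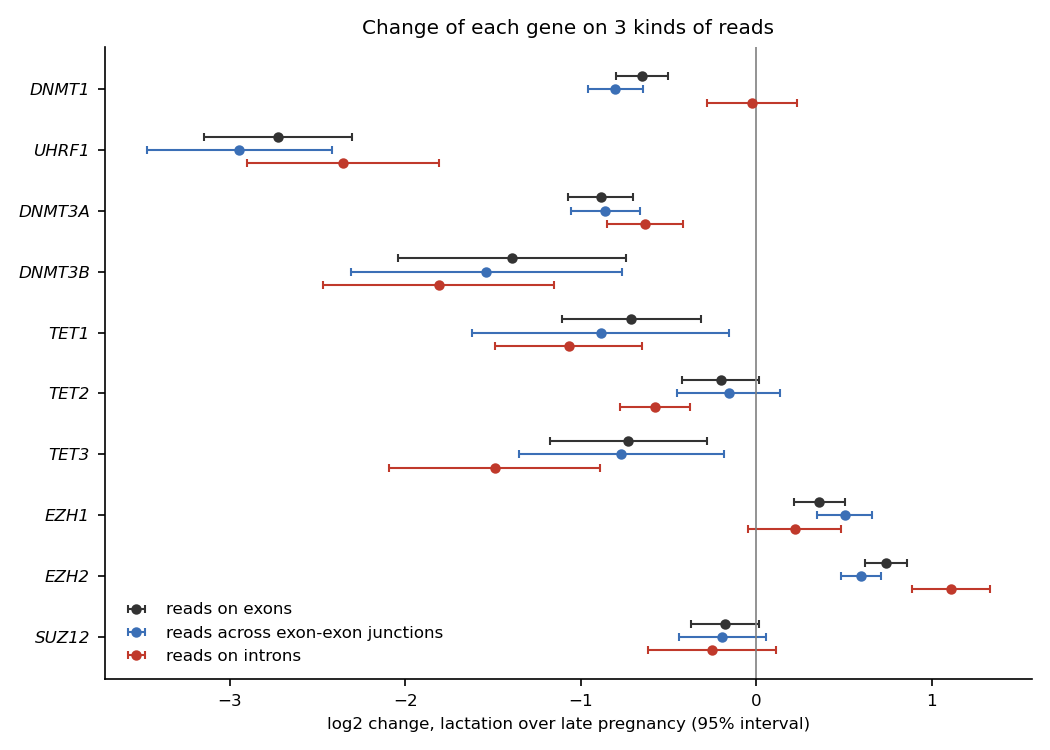
The log2 change of each gene (horizontal axis, lactation over late pregnancy, with 95% intervals) on reads on exons, across exon-exon junctions and on introns. *DNMT1* lies at -0.65 on exons and -0.02 on introns, and *EZH2* lies above 0 on all 3 kinds of reads.

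Dam nutrition was compared over the 9 late pregnancy pools, 3 per group. Of 13747 genes tested none was called by edgeR (0%), while 571 (4.15%) had an unadjusted p under 0.05 and DESeq2 called 20, none of them among the 10. *DNMT1* (0.0246), *UHRF1* (0.0334) and *DNMT3A* (0.0445) had an unadjusted edgeR p under 0.05, with an adjusted p of 1.00 for each. Their mean levels were highest in MM pools. *DNMT1* averaged 50.3 CPM in MM, 42.4 in HM and 42.6 in LM pools, *UHRF1* averaged 26.2, 19.3 and 18.6 CPM, and *DNMT3A* averaged 31.9, 26.7 and 27.2 CPM. These differences did not hold up after adjustment over all genes.

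By edgeR no gene was called for a change between states that differed by dam nutrition (0% of 13345 called, 876 or 6.56% at an unadjusted p under 0.05, 19 called by DESeq2 with none of the 10 genes). In simulated data this fit recovered only 38.5% of 2-fold differences, so the lack of a call does not show that the groups changed alike. The lowest adjusted p among the 10 was 0.735, for *DNMT3B* (unadjusted p = 0.0169 by edgeR), followed by *TET1* (unadjusted p = 0.0335, adjusted 0.740). *TET1* averaged 4.04 CPM in late pregnancy and 4.09 in lactation in HM pools, 4.83 and 2.23 in MM pools, and 4.31 and 2.05 in LM pools. The HM mean of lactation rests on pool 1 at 4.84 and pool 2 at 3.34 CPM. Pool 1 had 9014506 counts of 10352962 reads on genes, a smaller part than any other lactation pool. Its TMM factor was 0.505, against 0.432 to 0.479 in the others. Without this pool the *TET1* change over all groups was -0.88. *DNMT3B* averaged 1.49 and 1.08 CPM in HM, 1.61 and 0.243 in MM, and 1.32 and 0.557 in LM pools. The falls of *DNMT1*, *UHRF1* and *DNMT3A* and the rise of *EZH2* were called within each of the 3 groups, where 46.6%, 47.4% and 51.0% of all genes were called in HM, MM and LM.

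**Figure D4:**
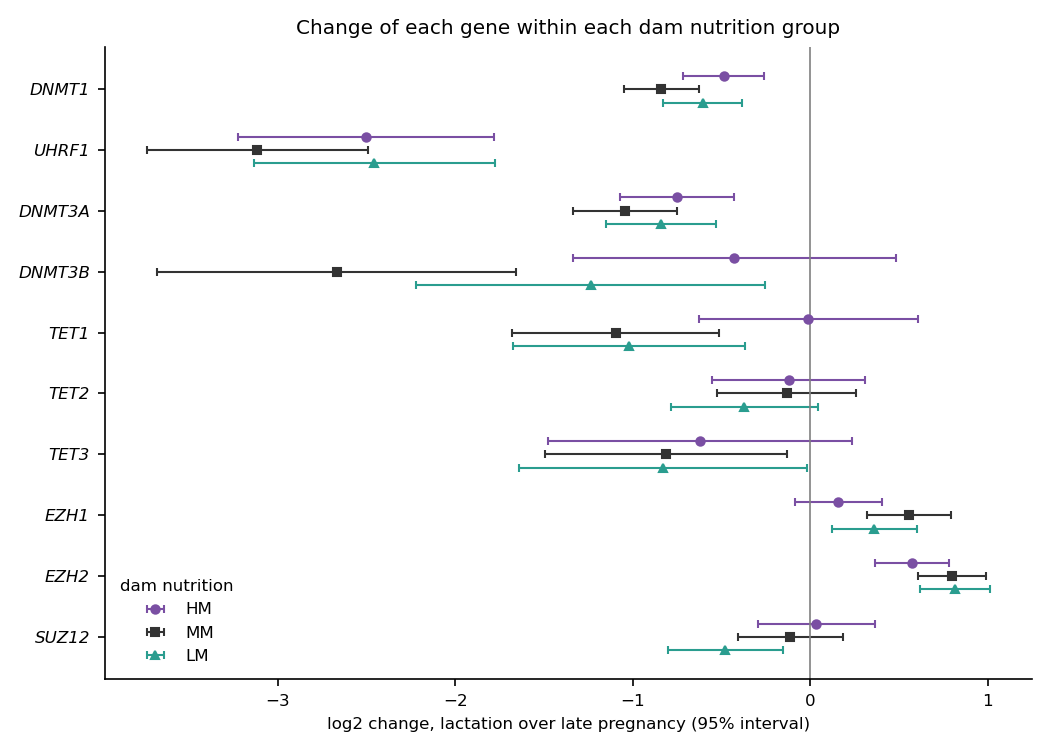
The log2 change of each gene (horizontal axis, lactation over late pregnancy, with 95% intervals) within each dam nutrition group, 3 late pregnancy and 2 lactation pools per group. In HM pools *TET1* lies at -0.01, against -1.10 in MM and -1.02 in LM pools, and *EZH2* lies above 0 in each group (0.57, 0.80 and 0.82).

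A sequencing lane stands in each library's name, although the labels say that each library was run on a pair of lanes. Among the 7 libraries with lane 7 in the name, 52.0% of all genes were called, and of the 10 genes 4 were called lower and 2 higher. *TET1* (-0.44, adjusted p = 0.128 by edgeR) and *TET3* (-0.73, adjusted p = 0.0752 by edgeR) were not called there. Among the 8 with lane 8, 56.6% of all genes were called and the same 6 and 2 genes of the group kept their calls.

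Other genes of the same pathways, taken by list, moved in both directions, as did the transcriptome at large. Counts of called genes in these lists and in the cell type markers stand beside 35.2% lower and 33.1% higher of all 13345 genes tested. A count near these shares does not set a list apart. The shares hold for TMM scaling only. Upper quartile scaling moved the median of all tested genes to -0.18, and its shares lower and higher were not counted. List counts under that scaling thus have no share of all genes beside them. Of 20 tested readers, writers and removers of DNA methylation, 8 fell and 3 rose (12 and 1 with upper quartile scaling), with a median log2 change of -0.05. *HELLS*, the helicase that opens chromatin for DNA methylation, fell by 2.07 on the log2 scale, from 9.90 ± 2.63 to 2.42 ± 0.797 CPM. *GADD45G* (-1.76 ± 0.306) and *GADD45A* (-1.51 ± 0.258), stress response proteins linked to DNA repair, fell as well. *UHRF2*, the paralogue of *UHRF1*, lay at 32.1 and 31.0 CPM with a log2 change of -0.04 that was not called (adjusted p = 0.66 by edgeR), and was picked out after its value was seen.

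Of 12 tested genes that supply the methyl donor, 3 fell and 6 rose (5 and 5 with upper quartile scaling, and 10 and 2 by library size alone). *AHCYL2*, a relative of the enzyme that clears the spent methyl donor but known for regulating ion transport, rose by 3.05 ± 0.093, from 11.8 ± 1.83 to 97.6 ± 12.0 CPM. *SHMT1*, the cytosolic enzyme that moves carbon from serine to folate, rose by 2.25 ± 0.127, and *GNMT*, which spends the methyl donor on glycine, rose by 1.62 ± 0.110. Of 8 genes that make or use 2-oxoglutarate, the cofactor of the TET enzymes, 4 fell and 3 rose (5 and 2 with upper quartile scaling). *IDH1*, the cytosolic isocitrate dehydrogenase that also supplies NADPH for milk fat synthesis in ruminants, rose by 1.51 ± 0.073, from 432 ± 42.1 to 1228 ± 127 CPM. *OGDH*, which consumes 2-oxoglutarate, rose by 0.91 ± 0.059, and *IDH2*, the mitochondrial enzyme, fell by 0.89 on the log2 scale.

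Among the 9 other PRC2 subunits tested 5 fell and 2 rose (7 and 2 with upper quartile scaling), with a median of -0.20. The core subunit *EED*, which reads the mark the complex makes, fell by 0.68 on the log2 scale, from 17.6 ± 1.02 to 11.2 ± 1.69 CPM. Accessory subunits that bring PRC2 to DNA went both ways, with *MTF2* at -0.70 ± 0.08 and *PHF19* at 1.90 ± 0.088, from 13.2 to 20.9 CPM up to 55.6 to 65.0 CPM. Both *EZH2* and *PHF19* rose while *EED* fell and *SUZ12* was not called. Of the 2 tested demethylases that remove the PRC2 mark, *KDM6B* rose by 0.34 ± 0.078.

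PRC1, the complex that compacts chromatin beside PRC2, had 5 genes lower and 8 higher of 22 tested under TMM, but 8 lower and 5 higher with upper quartile scaling and all 22 lower by library size alone, so no direction is given. *SCMH1* (1.05 ± 0.130) rose and *CBX2* (-0.67 ± 0.196) fell under TMM. Of 6 tested genes of PR-DUB, the enzyme that removes ubiquitin set by PRC1, *ASXL2* rose by 0.48 ± 0.109 and *FOXK1* fell by 0.43 on the log2 scale (3 lower and 1 higher with upper quartile scaling).

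Of 14 tested genes known as imprinted in at least some mammals, 6 fell and 2 rose (8 and 2 with upper quartile scaling), with a median of -0.30. *PEG10* fell by 2.36 on the log2 scale but on few reads, with at most 46 per library in late pregnancy and 4 in lactation. *DLK1* fell by 1.57 on the log2 scale, from 9.73 ± 1.99 to 3.18 ± 0.742 CPM. The ion channel gene *KCNQ1* rose by 1.03 ± 0.309, also on few reads, with at most 33 per library in late pregnancy and 24 in lactation. With scaling by library size alone every tested gene of these lists was called lower, except 1 of the PRC2 list that was not called and 2 of the methyl donor list that were higher.

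**Figure D5:**
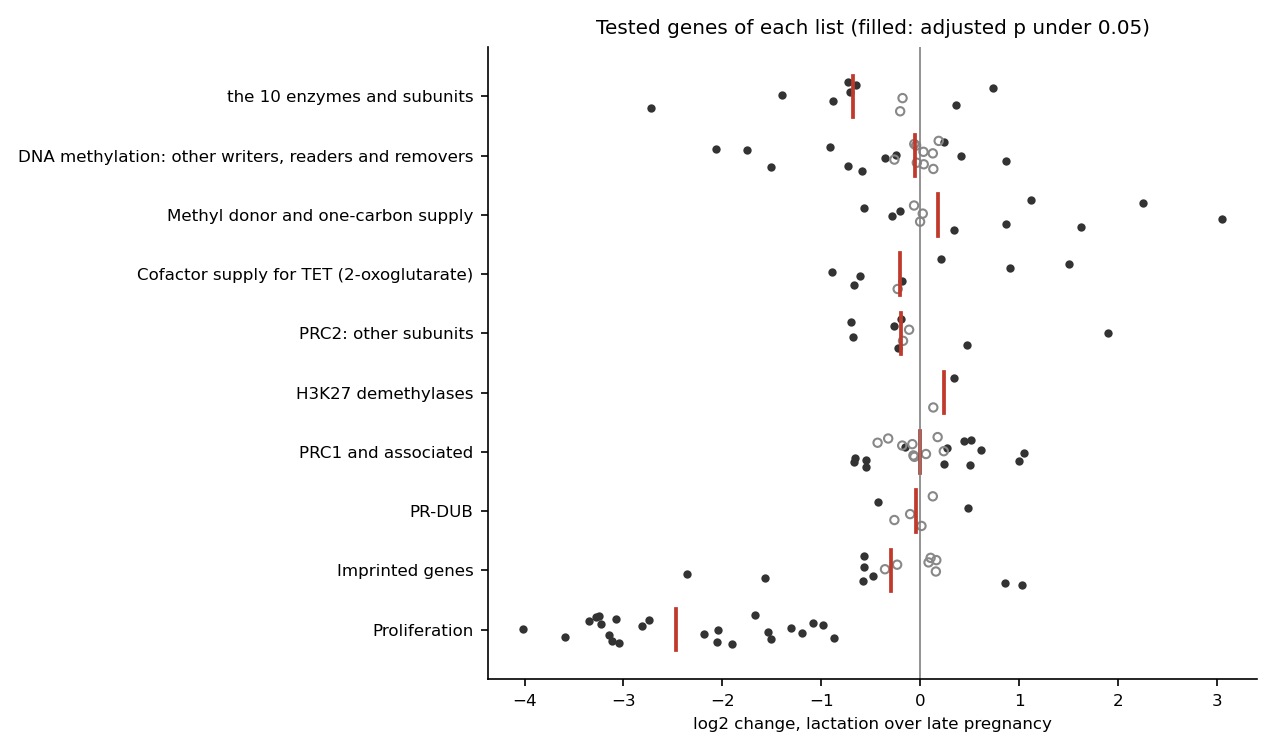
The log2 change (horizontal axis, lactation over late pregnancy) of each tested gene of the 10 and of 9 related lists; filled points have an adjusted p under 0.05 by edgeR and red bars are list medians. The proliferation list has its median at -2.46 and all 24 genes below 0, while the medians of the other 8 lists lie between -0.30 and 0.24.

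Proliferation genes were lower in lactation too. All 24 tested genes fell, with a median log2 change of -2.46, and their summed level was 353 to 523 CPM in late pregnancy and 91.2 to 142 CPM in lactation. *MKI67*, a marker of cycling cells, fell by 3.15 and *PCNA* by 0.98 on the log2 scale, and *BUB1* of the mitotic checkpoint (-4.02 ± 0.287), cyclin A gene *CCNA2* (-3.60 ± 0.267) and cyclin B gene *CCNB1* (-3.35 ± 0.296) fell most among those of at least 1 CPM. *UHRF1* lay near the middle of this list and *DNMT1* above all of its genes, while *EZH2* went the other way. The part of cell division in the falls of *UHRF1*, *DNMT1* and *HELLS* was not tested.

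Markers of cell types also moved between the states. Luminal epithelial markers summed to 1522 to 1877 CPM in late pregnancy and 2385 to 2622 CPM in lactation, with 4 of 7 tested higher and 1 lower. Most of that sum lay in *KRT19* (622 and then 947 CPM on average) and *ELF5*, a defining factor of alveolar cells. *ELF5*, named after its value was seen, rose by 0.81 on the log2 scale, from 629 to 1100 CPM on average (adjusted p = 2.37e-11 by edgeR). The 1 lower was *GATA3* (-0.59, adjusted p = 0.00134 by edgeR), and *KRT8* and *CDH1* were not called. T cell markers, all 6 lower, summed to 41.8 to 68.1 and then 13.4 to 20.3 CPM. Fibroblast markers, 4 of 5 lower, summed to 359 to 639 and then 231 to 379 CPM, and endothelial markers, all 3 lower, to 140 to 192 and then 85.8 to 124 CPM. Of 6 myoepithelial markers 2 fell and 2 rose, of 4 macrophage markers 2 fell and 1 rose, of 3 tested markers of B and plasma cells 1 fell and 1 rose, and none of 3 adipocyte markers was called (adjusted p of 0.23 to 0.73 by edgeR). The part of cell type makeup in the changes of the 10 genes was not tested.

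Finally, the genes whose profiles over the 15 libraries were most like that of a called gene with more than a 2-fold change were sought among all tested genes, as the smallest root mean square difference of centred log2(CPM + 1). For *UHRF1* these were *CCNA2* (difference 0.212), *RAD54L* of recombination repair (0.212) and LOC100037680 (0.215), at log2 changes of -3.60, -3.26 and -2.45. For *DNMT3B* they were *PLEKHA2* (0.157), *MAP1S* (0.163) and *UBL3* (0.166), with log2 changes of -1.04, -0.71 and -0.63. The likeness of the latter is set largely by low counts, since *DNMT3B* at most reached 2.10 CPM.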

How the data were processed

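RNA was sequenced from 15 pools. Per the labels and the study's methods, the authors prepared libraries with the TruSeq kit, placed paired reads on the sheep genome with CLC Genomics Workbench, and the deposited table gives counts and RPKM of 24691 features. The deposited counts are unnormalized reads on exons, on whole genes and across exon-exon junctions. The deposited RPKM come with a quantile-normalized form, used here only in alternatives. The table's fold changes, p-values and corrected p-values of the authors' own test were not used. RPKM computed here from exon counts differed from those deposited by at most 3.5e-07 of their size.

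Exon counts (whole-gene counts for the 5583 features without an annotated transcript) were analysed in R 4.3.3 with edgeR 4.0.16: filterByExpr by state, TMM and the quasi-likelihood F-test without covariates. Fits for intron counts, for the 9 late pregnancy libraries by dam nutrition and for the interaction of state and nutrition used the same test. DESeq2 1.42.0 and limma 3.58.1 served as alternatives, and exact permutation tests used scipy 1.17.1. Each fit was tested on simulated data. Reads carry no molecular identifiers, and precision is given by the spread between libraries. Within a state every pair of libraries differed by more than sampling noise, at a chi-square per gene of at least 5.11.

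Groups came from the labels. The members and lists were chosen with earlier results of these data known. Named were all 10 members, the 3 called genes of each list with the largest change at a mean of at least 1 CPM in a state, *PCNA*, *MKI67* and the genes of most similar profile, except for a gene of the lists that is not reported here. *UHRF2*, *ELF5*, *KRT19*, *GATA3*, *KRT8*, *CDH1* and LOC101106136 fall outside this rule and were named after their values were seen. Alternatives covered scaling, filter, reads counted, covariates, test and leaving out each library. Junction reads and fits by lane were added after the data had been seen. Coordinates of other genome builds were not used, and no protein or promoter sequence was analysed here.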

Additional observations from a re-analysis of the deposited data

Results flagged for a closer look

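Of 40 sets of values checked for a library that stands apart from the rest of its state (levels and ratios, in each state), 1 did so, where chance alone gives about 1 in 20. The ratio of *DNMT3B* to *DNMT3A* in late pregnancy was highest in HM pool 2, with a log2 ratio of -2.96 against -3.93 to -3.47 in the other 8 pools, a gap of 0.530 of the whole range (critical value 0.493). That pool held 23 reads of *DNMT3B* and the fewest reads of *DNMT3A* in its state, 283.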

How the results depend on the processing

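Calls of *DNMT1*, *UHRF1*, *DNMT3A* and *DNMT3B* were the same under each alternative that could be run, though limma on quantile-normalized RPKM + 1 gave smaller changes of *UHRF1* (-1.79), *DNMT3B* (-0.28), *TET3* (-0.21) and *EZH1* (0.17). Scaling by library size alone gave 10 members lower and 0 higher, turned *EZH1* to -1.54 and *EZH2* to -1.17, and gave 112 list genes lower and 2 higher, against 56 and 26. It shifts the median of all genes to -1.94. *TET1* lost its call with limma on quantile-normalized RPKM and among lane 7 libraries, and *TET3* among lane 7 libraries.

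Leaving out each library in turn gave 6 to 7 members lower, 2 to 2 higher and 8891 to 9049 genes called, against 9122, and 7 to 8 ratios passing. On intron reads it gave 6 to 7 lower and 1 to 2 higher, the second being *EZH1* at 0.31 without lactation replicate 1, which is HM pool 1. *TET2* and *SUZ12*, not called with all libraries, reached a call without some libraries.

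With a replicate block of dam nutrition and pool number the members kept 6 lower and 2 higher, of 8464 genes called. No pairing of the samples by these numbers was seen. Of 6 pairs, 3 had a correlation of deviations over 0.1 (-0.0537 to 0.128), and 1 of the 6 lactation libraries correlated best with its own number. Whether pools of the states share ewes cannot be told from so few pairs of pools. Low reads of *DNMT3B*, *TET1* and *TET3* in lactation limit the precision of their changes, and they were not tested where 10 reads were required in every library.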

Other observations

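Within late pregnancy, the 9 pools also differed in the level of the proliferation genes (mean log2(CPM + 1) of 3.35 to 4.01 over 24 genes), and each of the 10 genes was set against it, in either state, as 20 relations examined after the other values had been seen. *UHRF1* rose with it (Pearson's r = 0.871, exact permutation p = 0.00244, adjusted 0.0487 over the 20; Spearman's rho = 0.817, p = 0.0108, adjusted 0.108). Without HM pool 2 and LM pool 1, the 2 pools farthest from the median, r was 0.454, so this relation rests on those pools. *EZH1* went the opposite way (r = -0.844, exact permutation p = 0.00570, adjusted 0.0570; rho = -0.883, p = 0.00308, adjusted 0.0615) and stood at r = -0.823 without the same 2 pools, yet neither value passed the adjustment. *DNMT1* (r = 0.742, exact permutation p = 0.0237, adjusted 0.1495; rho = 0.583, p = 0.108, adjusted 0.432) and *DNMT3A* (r = 0.722, exact permutation p = 0.0299, adjusted 0.1495; rho = 0.733, p = 0.0311, adjusted 0.2075) did not pass it either, and fell to r = 0.290 and 0.347 without those pools. *EZH2* showed little relation (r = 0.0949, exact permutation p = 0.807, n = 9). In the 6 lactation pools no relation had an unadjusted exact permutation p under 0.2. Lanes and dam nutrition groups held too few pools of a state for values of their own.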
